A study of Mus musculus with 6 samples.

Results

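The genes described here are 36 that make cholesterol, control its synthesis, export it, or make and desaturate fatty acids, of 24424 genes in the deposited count table. They were chosen by name: 18 cholesterol synthesis enzymes, 6 genes of SREBP control and sterol transport, 5 genes of the liver X receptor and export arm, and 7 genes of fatty acid synthesis and desaturation. RNA sequencing had been done on cells sorted from mouse spleen and peripheral lymph nodes as regulatory T cells, a lineage that depends on Foxp3 and dampens immunity. The study addressed how removal of Bcl11b, a zinc finger transcription factor of T cells, changes the transcriptome of these cells.

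The libraries formed 3 groups of 2. WT libraries at steady state carried the strain label Bcl11bF/F, which names floxed alleles and no Cre. KO libraries at steady state and KO_EAE libraries carried the label Bcl11bF/WT Foxp3YFP-Cre +/-, which names 1 floxed and 1 wild-type allele, although their genotype label was KO. EAE usually abbreviates experimental autoimmune encephalomyelitis, which models multiple sclerosis in mice. Cre was driven by Foxp3, so the deletion was directed to Foxp3-expressing cells. Ages were not given in the labels, and no WT library with EAE was analysed here. Nothing in the labels says that replicates came from separate animals, so the p-values speak of the spread between libraries, and that spread may be technical.

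Cholesterol is built from acetyl-CoA through mevalonate, squalene and lanosterol. When membrane sterol is low, SCAP escorts the SREBP transcription factors to the Golgi for processing, and they raise transcription of the synthesis enzymes; INSIG proteins hold the complex back when sterol is high. When oxysterols accumulate, liver X receptors raise transcription of the cholesterol exporters and of Mylip, a ubiquitin ligase. Activated T cells use these routes to build membrane as they grow and divide.

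The bases upstream of 4 of these genes are shown first. Hmgcs1 is shown because its window alone held the sterol regulatory element letters searched, Mvd because it fell in both KO groups, and Insig1 and Srebf2 because they carry the feedback and the factor itself. Sequences are from RefSeq (GRCm38.p6), 5′ to 3′ on the gene's strand, without bases that lie in an exon of the gene. Capitals mark, on either strand, the sterol regulatory element letters TCACNCCAC, the box named for its letters CCAAT, the GC box with the letters GGGCGG, and the E-box with the letters CACGTG; the motifs may share letters at their ends. The stretches are chr13:119690101-119690350 for Hmgcs1 (plus strand), chr8:122443423-122443672 for Mvd (minus strand), chr5:28071162-28071362 for Insig1 (plus strand) and chr15:82147019-82147180 for Srebf2 (plus strand).
Hmgcs1: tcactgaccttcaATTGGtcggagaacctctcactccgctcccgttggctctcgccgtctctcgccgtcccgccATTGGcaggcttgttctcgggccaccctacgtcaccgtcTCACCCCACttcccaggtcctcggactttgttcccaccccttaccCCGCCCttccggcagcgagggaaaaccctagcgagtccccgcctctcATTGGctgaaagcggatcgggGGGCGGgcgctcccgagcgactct
Mvd: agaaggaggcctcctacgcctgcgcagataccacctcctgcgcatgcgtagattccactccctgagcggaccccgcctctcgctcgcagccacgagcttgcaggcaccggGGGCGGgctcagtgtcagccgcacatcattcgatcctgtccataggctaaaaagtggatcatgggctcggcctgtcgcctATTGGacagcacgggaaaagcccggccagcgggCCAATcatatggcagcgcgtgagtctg
Insig1: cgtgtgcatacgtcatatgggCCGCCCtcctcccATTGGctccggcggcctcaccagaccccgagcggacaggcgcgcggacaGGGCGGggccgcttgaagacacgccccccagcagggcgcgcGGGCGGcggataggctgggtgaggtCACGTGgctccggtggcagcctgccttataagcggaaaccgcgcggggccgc
Srebf2: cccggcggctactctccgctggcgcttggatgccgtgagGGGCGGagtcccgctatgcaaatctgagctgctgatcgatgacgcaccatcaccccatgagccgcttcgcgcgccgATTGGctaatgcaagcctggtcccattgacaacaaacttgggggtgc

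Windows of 250 bases before to 50 bases after a start were found for 28 of the 36 genes, 6 of them with more than 1 window. CCAAT stood in a window of 21 of the 28 genes (75%), against 41.1% of all 27025 genes with a window. GGGCGG stood in 23 of 28 (82.1%), against 38.2% of all genes. CACGTG stood in 6 of 28 (21.4%), against 8.09%. TCACNCCAC stood in 1 of 28, Hmgcs1, against 1.44% of all genes, and its first base lay 137 bases before the start. These are matches of letters and not measured binding sites.

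The count table held between 14663542 and 16904312 reads in genes per library, and 3 reads were worth 0.170 to 0.205 CPM, which are reads scaled to a common library size by TMM. Bcl11b itself was read at 420 and 425 CPM in WT, 371 and 370 CPM in KO, and 404 and 278 CPM in KO_EAE. In KO it differed from WT by -0.19 ± 0.17 on the log2 scale (SE; edgeR adjusted p = 0.527), and a count over the whole gene does not isolate a floxed part. KO and KO_EAE stand throughout for the libraries so labelled. Foxp3, Cd4 and Cd3e were read in every library. The summed level of 11 regulatory T cell markers was 2623 to 2714 CPM in WT, 1850 to 1899 CPM in KO and 1901 to 2033 CPM in KO_EAE. In KO, 6 of these 11 fell (edgeR adjusted p under 0.05), where 3.46% of all genes tested did. Foxp3 was among the 6, with a log2 change of -0.38 ± 0.08 (SE), while Cd4 and Cd3e stood at 0.04 and -0.02. The summed level of 20 macrophage and dendritic cell markers was 340 to 362 CPM in WT, 2440 to 2914 CPM in KO and 2169 to 2601 CPM in KO_EAE. In KO, 18 of the 20 rose (edgeR adjusted p under 0.05), where 9.41% of all genes tested did. None of these 20 was at 0 in WT. In such bulk samples, fewer cells of a type and less RNA per cell cannot be told apart.

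All 36 genes passed the filter on low counts. Their WT levels per kb of exon, the scale used to compare genes, ran from 0.104 CPM per kb for Fads2, a fatty acid desaturase, to 54.4 CPM per kb for Acly, which makes cytosolic acetyl-CoA. Srebf2, the main SREBP of cholesterol synthesis, averaged 45.2 CPM per kb in WT. Among the enzymes, Mvd was highest at 26.3 CPM per kb and Tm7sf2, a sterol reductase, lowest at 2.49 CPM per kb. Nr1h3, the liver X receptor alpha, averaged 3.07 CPM per kb in WT, and Nr1h2, the liver X receptor beta, 39.3 CPM per kb.

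From WT to KO, the liver X receptor gene Nr1h3 and the desaturase gene Fads1 rose, and the enzyme genes Mvd and Sqle fell (edgeR's quasi-likelihood test, Benjamini-Hochberg adjusted p under 0.05 over 14548 genes). Thus 2 of 36 rose, where 9.41% of all genes tested did, and 2 of 36 fell, where 3.46% did. The median log2 change of the 36 was -0.06 against -0.01 over all genes tested, and their median absolute change was 0.19 against 0.24. The groups did not overlap for 13 genes that were higher in KO (32.7% of all genes) and 16 that were lower (32.5%). The number of calls moved with single libraries: without any 1 of the WT or KO libraries 2 remained, Nr1h3 and Fads1, while 9 were made without KO_EAE replicate 1 and 8 without KO_EAE replicate 2.

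**Figure D1:**
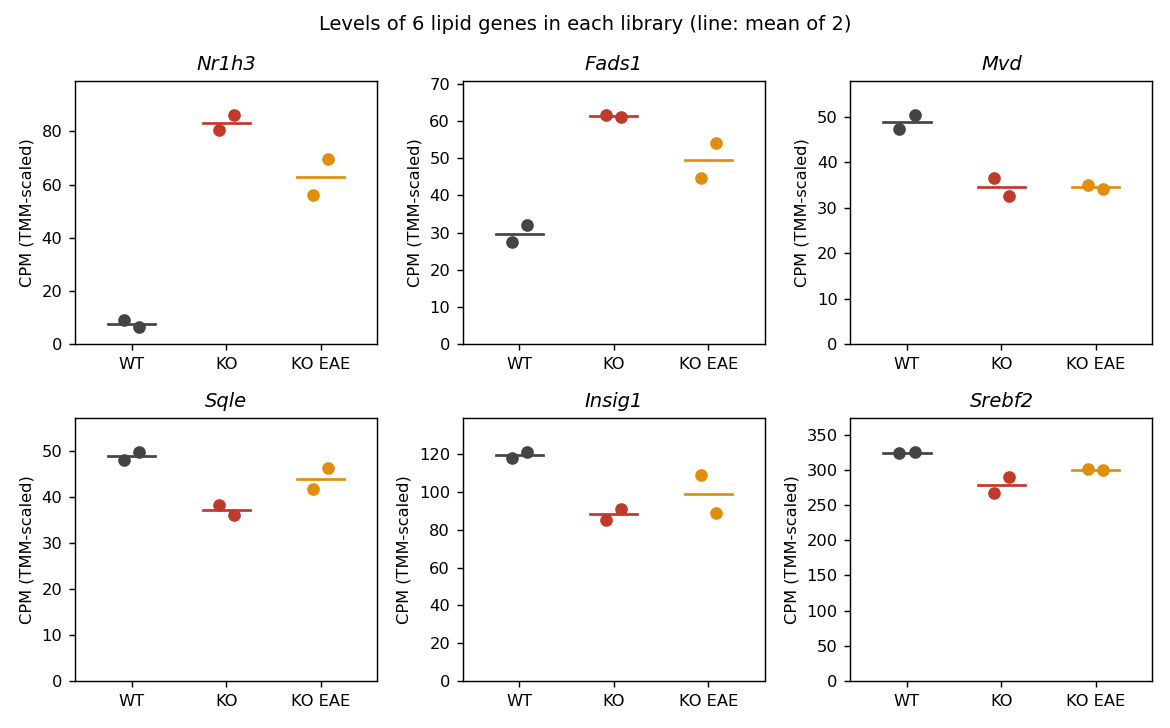
Level of 6 genes in each library (y axis, CPM scaled by TMM, starting at 0; points, libraries; lines, means of 2). KO and KO_EAE libraries lie above both WT libraries for Nr1h3 and Fads1, and below both WT libraries for Mvd, Sqle, Insig1 and Srebf2.

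The 18 enzyme genes ran from 10.7 to 88.8 CPM over all libraries. Mvd (chr8:122433601-122443422), which decarboxylates mevalonate diphosphate to the first isoprenoid unit, had 47.4 and 50.3 CPM in WT, 36.5 and 32.6 CPM in KO, and 35.1 and 34.2 CPM in KO_EAE. Every KO and KO_EAE library was below both WT libraries. Mvd fell by 0.50 on the log2 scale in KO (SE 0.10, edgeR adjusted p = 0.0274). The call was lost without any 1 of the WT or KO libraries, where the adjusted p reached 0.196.

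Sqle (chr15:59315077-59331192), which epoxidizes squalene and is a rate-controlling step after mevalonate, had 48.0 and 49.7 CPM in WT. It had 38.3 and 35.96 CPM in KO, and 41.6 and 46.2 CPM in KO_EAE. Both KO libraries were below both WT libraries, and the KO_EAE libraries lay between the groups. Sqle fell by 0.40 on the log2 scale in KO (SE 0.10, edgeR adjusted p = 0.0484). That call was also lost without any 1 of the WT or KO libraries, with an adjusted p of up to 0.261.

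The other 16 enzymes were not called, with log2 changes from -0.36 to 0.28 and adjusted p-values from 0.0636 to 0.879. Hmgcs1 and Cyp51 had the highest mean CPM, not corrected for length. Hmgcs1, which makes HMG-CoA, had 78.9 and 84.1 CPM in WT and 85.5 and 87.3 CPM in KO, a log2 change of 0.08 ± 0.08 (SE; edgeR adjusted p = 0.549). Cyp51, the lanosterol demethylase, had 83.4 and 80.9 CPM in WT and 61.8 and 70.4 CPM in KO, a log2 change of -0.32 ± 0.11 (edgeR adjusted p = 0.120). Among all 18, 12 log2 changes were negative and 6 positive, with a median of -0.12. The groups were apart for 9 lower genes (32.5% of all genes tested) and 5 higher genes (32.7%). The enzymes lower in KO without overlap were Mvk, Mvd, Idi1, Fdps, Fdft1, Sqle, Cyp51, Nsdhl and Ebp, and those higher were Hmgcs1, Lss, Msmo1, Sc5d and Dhcr7. Lower and higher genes stood both before and after lanosterol in the pathway. Summed, the enzymes stood at 841 and 841 CPM in WT, 791 and 786 CPM in KO, and 794 and 850 CPM in KO_EAE.

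**Figure D2:**
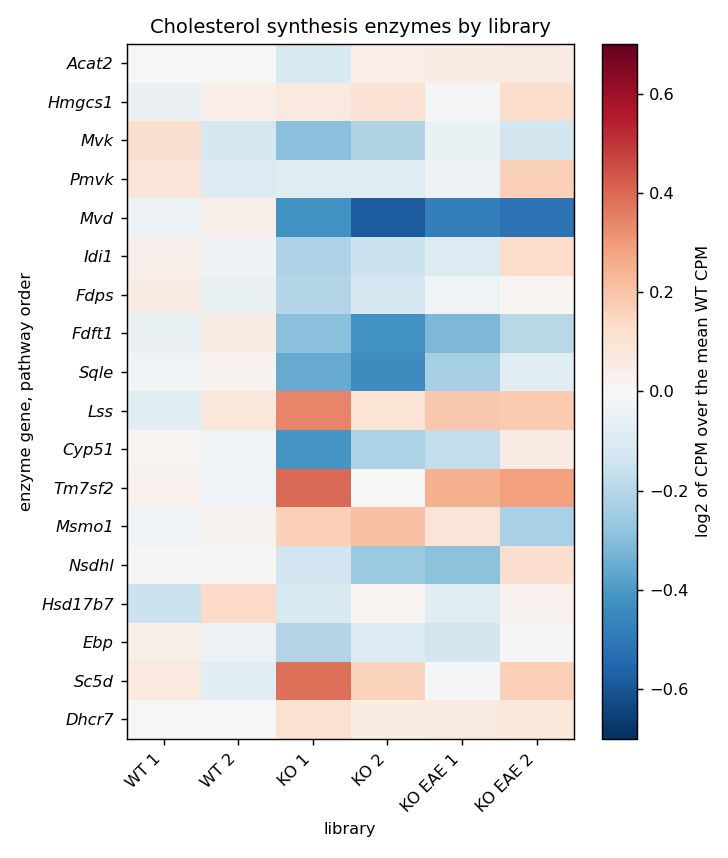
Level of each of the 18 cholesterol synthesis enzyme genes (rows, in pathway order) in each library (columns), as log2 of CPM over the mean WT CPM (colour: blue lower, red higher). Mvd is below the WT mean in all 4 KO and KO_EAE libraries, while Lss is above it in all 4.

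None of the 6 genes of SREBP control and sterol transport passed the test in KO; 3 had an unadjusted p under 0.05 by edgeR, and DESeq2 called 1, Insig1. Srebf2 (chr15:82147181-82205379) had 324 and 325 CPM in WT, 268 and 290 CPM in KO, and 301 and 299 CPM in KO_EAE. Its log2 change in KO was -0.22 ± 0.08 (SE; edgeR adjusted p = 0.140). Scap, the SREBP escort, had 184 and 186 CPM in WT, 167 and 168 CPM in KO, and 168 and 157 CPM in KO_EAE, a log2 change in KO of -0.15 ± 0.07 (edgeR adjusted p = 0.228). Both genes were lower in every KO and KO_EAE library than in either WT library. Srebf1, whose products act more on fatty acid genes, had a log2 change of -0.01 ± 0.07 with overlapping groups.

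The paralogs Insig1 and Insig2, like Srebf1 above and the further genes beyond the called ones and those of highest level, were chosen for description after their values were seen. Insig1 (chr5:28071363-28078662), a target of SREBP as well as its brake, had 118 and 121 CPM in WT, 85.4 and 91.0 CPM in KO, and 109 and 88.9 CPM in KO_EAE. Its log2 change in KO was -0.44 ± 0.11 (edgeR adjusted p = 0.0507). Insig2, the paralog with the same holding role, had 31.6 and 29.8 CPM in WT, 41.7 and 37.8 CPM in KO, and 31.1 and 29.6 CPM in KO_EAE. Its log2 change in KO was 0.37 ± 0.11 (edgeR adjusted p = 0.0849). Per kb, Insig1 stood at 4.21 and 4.57 times the level of Insig2 in WT, 2.30 and 2.70 times in KO, and 3.95 and 3.38 times in KO_EAE. The ratio was thus lowest in the KO libraries, and the difference in the ratio was not tested. In the normalized table described below, Insig1 stood at 602 and 437 in WT and 587 and 548 in KO, with overlapping groups and a log2 change of 0.14. Insig2 stood there at 853 and 882 in WT and 958 and 927 in KO.

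In the liver X receptor arm, Nr1h3 (chr2:91184061-91202834) had the largest change of the 36 genes. It had 9.01 and 6.43 CPM in WT, 80.4 and 86.0 CPM in KO, and 56.1 and 69.7 CPM in KO_EAE. No KO or KO_EAE library came near a WT library. Nr1h3 rose 10.8-fold in KO, a log2 change of 3.43 ± 0.19 (SE; edgeR adjusted p = 0.000155). It was called in all 13 alternative fits, with log2 changes from 3.20 to 3.71. Its exons overlap the predicted gene Gm13783 on the same strand, so reads in the shared bases may not have been counted for Nr1h3.

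Macrophages and dendritic cells also express Nr1h3, and their markers were higher in the same libraries. So were some markers listed for other cells. The 10 NK cell markers summed to 101 to 111 CPM in WT and 313 to 315 CPM in KO. Of the 9 tested, 6 rose: Klrb1c, Klrd1, Klre1, Nkg7, Tyrobp and Fcer1g. Ncr1, Gzma and Prf1 were not called. The 7 erythroid markers summed to 6.86 to 9.26 CPM in WT and 48.9 to 75.0 CPM in KO, and 5 rose. The 10 B cell markers summed to 43.4 to 48.7 CPM in WT and 110 to 162 CPM in KO, and 2 rose, Cd22 and Blnk. Cd22 had 13.1 and 14.3 CPM in WT and 50.1 and 63.6 CPM in KO. Blnk had 1.25 and 0.919 CPM in WT and 26.7 and 29.1 CPM in KO. The others were not called. Among them, Cd79b had 24.9 and 19.3 CPM in WT and 21.4 and 28.2 CPM in KO. Cd79a had 5.76 and 5.39 CPM in WT and 5.39 and 13.1 CPM in KO. Of all genes tested, 9.41% rose. Nr1h3 was 2.65 and 1.78 percent of the summed CPM of the 20 markers in WT, 3.297 and 2.95 percent in KO, and 2.59 and 2.68 percent in KO_EAE. In the normalized table described below, 19 of these 20 markers were listed. There Nr1h3 was 1.97 and 1.28 percent of their sum in WT, and 1.14 and 1.45 percent in KO. The marker sum itself rose, so such a share does not tell which cells carry the Nr1h3 reads. The part of any of these cells in the rise was not tested.

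**Figure D3:**
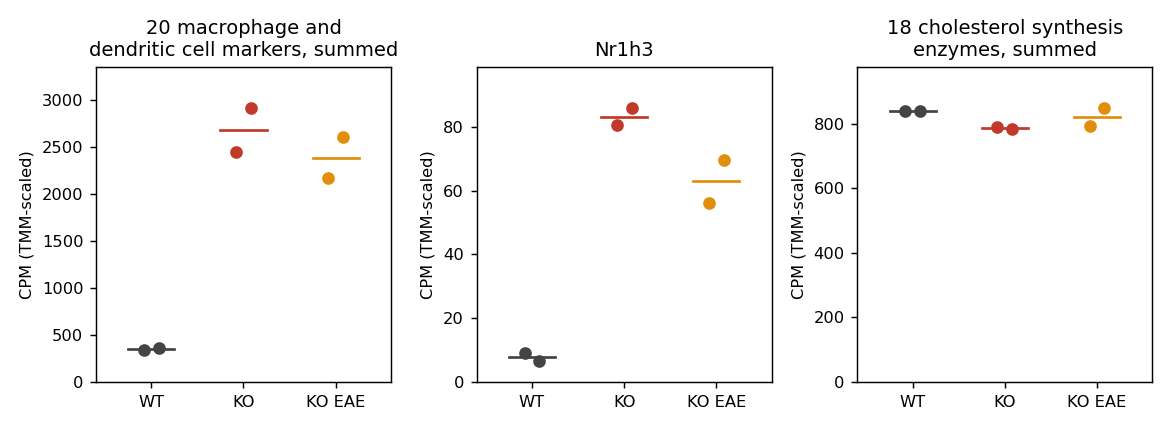
Summed level of 20 macrophage and dendritic cell markers (left), level of Nr1h3 (middle) and summed level of 18 cholesterol synthesis enzymes (right) in each library (y axes, CPM, each starting at 0; points, libraries; lines, means of 2). The marker sum is 340 to 362 CPM in WT and 2169 to 2914 CPM in the other 4 libraries, and the enzyme sum 786 to 850 CPM over all 6.

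The other 4 genes of this arm were not called in KO, with log2 changes from -0.09 to 0.46. Abcg1, a cholesterol exporter, had 260 and 241 CPM in WT and 233 and 242 CPM in KO, and its groups overlapped. Nr1h2 had 130 and 133 CPM in WT and 124 and 124 CPM in KO, a log2 change of -0.09 ± 0.09 (SE; edgeR adjusted p = 0.570). Per kb, Nr1h3 was 0.0924 and 0.0643 times Nr1h2 in WT, 0.866 and 0.922 times in KO, and 0.593 and 0.848 times in KO_EAE. The exporter Abca1 had 109 and 81.3 CPM in WT and 110 and 151 CPM in KO, a log2 change of 0.46 ± 0.19 (edgeR adjusted p = 0.181). Mylip had 86.7 and 83.4 CPM in WT and 108 and 102 CPM in KO, a log2 change of 0.31 ± 0.09 (edgeR adjusted p = 0.0905).

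Of the fatty acid genes, Fads1 (chr19:10182888-10196877), the delta-5 desaturase of polyunsaturated fatty acid synthesis, rose in KO. It had 27.3 and 32.1 CPM in WT, 61.5 and 61.1 CPM in KO, and 44.7 and 54.1 CPM in KO_EAE. All 4 KO and KO_EAE libraries were above both WT libraries. Fads1 rose 2.06-fold in KO, a log2 change of 1.04 ± 0.13 (SE; edgeR adjusted p = 0.00392), and it was called in all 13 alternative fits. As a share of the summed macrophage and dendritic cell markers it was 8.04 and 8.86 percent in WT, 2.52 and 2.10 percent in KO, and 2.06 and 2.08 percent in KO_EAE. This share was lower in every KO and KO_EAE library than in WT, and the marker sum itself rose. The part of these cells, or of NK, erythroid or B cells, in this rise was not tested.

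Fasn and Acly had the highest mean CPM of this role, not corrected for length. Fasn, the fatty acid synthase, had 357 and 358 CPM in WT, 318 and 320 CPM in KO, and 366 and 391 CPM in KO_EAE. Its log2 change in KO was -0.16 ± 0.08 (SE; edgeR adjusted p = 0.254), with both KO libraries below all others. Acly had 289 and 285 CPM in WT and 272 and 285 CPM in KO, a log2 change of -0.04 ± 0.08 (edgeR adjusted p = 0.745).

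The stearoyl-CoA desaturase Scd1 was read at 5.76 and 4.53 CPM in WT, 11.8 and 23.2 CPM in KO, and 7.58 and 19.3 CPM in KO_EAE. The KO and KO_EAE libraries overlapped each other and lay above both WT libraries. The KO_EAE replicates differed by 2.55-fold, and the log2 change in KO was 1.76 ± 0.53 (SE; edgeR adjusted p = 0.0863). Fads2, the delta-6 desaturase, had 7 and 4 reads in WT, 28 and 12 in KO, and 10 and 35 in KO_EAE, close to the floor of 3 reads, and replicates differed by up to 3.502-fold. The next largest replicate gap of the 36 genes was 1.40-fold, for Nr1h3. Scd2, the abundant stearoyl-CoA desaturase of these cells, had 141 and 127 CPM in WT, 156 and 147 CPM in KO, and 153 and 194 CPM in KO_EAE.

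**Figure D4:**
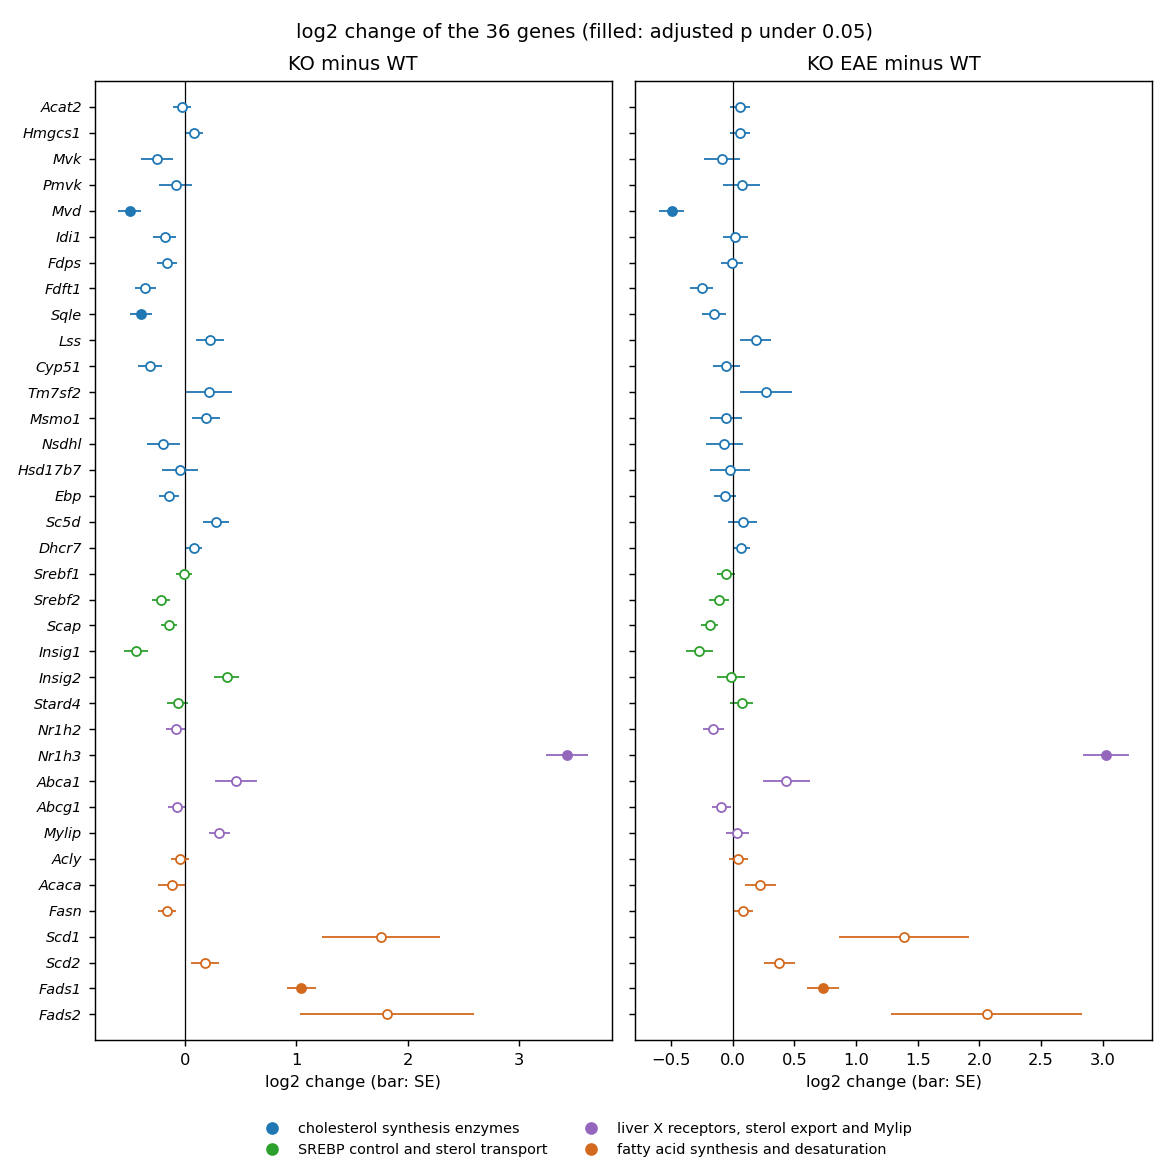
Log2 change of each of the 36 genes (rows, coloured by role) in KO against WT (left) and KO_EAE against WT (right), from the count table (points, edgeR; bars, SE; filled points, adjusted p under 0.05; the axes differ in scale). Nr1h3 is at 3.43 and 3.03, and all genes but Nr1h3, Fads1, Scd1 and Fads2 lie within 0.5 of 0; both panels share the WT libraries.

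The comparison of KO_EAE with KO addressed EAE among libraries labelled KO, and it shares the KO libraries with the comparison above and the KO_EAE libraries with the next. No gene of the 36 passed edgeR's test, where 0.0137% of all genes tested did (2 of 14548). At an unadjusted p under 0.05 there were 7, and DESeq2 called 0. Of the 18 enzymes, 13 had a positive log2 change and 5 a negative one, with a median of 0.08, against 0.00 over all genes tested. For 12 of the 36 genes the KO_EAE libraries were both above the KO libraries (17% of all genes), and for 6 both below (21.3%).

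The 7 genes with an unadjusted p under 0.05 were Sqle, Insig2, Nr1h3, Mylip, Acaca, Fasn and Fads1. Insig2 had the lowest of their p-values, with a log2 change of -0.39 ± 0.11 (SE; edgeR adjusted p = 0.496). Acaca, which makes malonyl-CoA, had 74.4 and 74.9 CPM in KO and 82.9 and 106 CPM in KO_EAE, a log2 change of 0.34 ± 0.13 (edgeR adjusted p = 0.510). Without KO_EAE replicate 1, Acaca was the 1 gene of the 36 called. The log2 change was 0.25 ± 0.08 for Fasn and 0.24 ± 0.10 for Sqle. All 5 genes of the liver X receptor arm had negative log2 changes, from -0.40 for Nr1h3 to -0.02 for Abcg1.

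From WT to KO_EAE, Nr1h3 and Fads1 rose and Mvd fell; 7.41% of all genes tested rose and 1.95% fell. This comparison mixes the genotype and EAE, whose parts cannot be told apart without a WT group with EAE. Nr1h3 had a log2 change of 3.03 ± 0.19 (SE; edgeR adjusted p = 0.000324), Fads1 0.73 ± 0.13 (adjusted p = 0.0201), and Mvd -0.50 ± 0.10 (adjusted p = 0.0357). The KO_EAE libraries were both above WT for 11 genes (29.9% of all genes) and both below for 8 (30.7%). Nr1h3 was called in all 14 alternative fits, Fads1 in 8 and Mvd in 4. Without any 1 of the WT or KO libraries 1 call remained, Nr1h3, while 9 calls were made without KO_EAE replicate 1 and 2 without KO_EAE replicate 2.

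All 7 fatty acid genes had positive log2 changes in KO_EAE against WT, with a median of 0.38. Both KO_EAE libraries were above both WT libraries for 5 of them, as for 29.9% of all genes tested. Of these, Fads1 passed the test. Scd2 had a log2 change of 0.38 ± 0.12 (SE; edgeR adjusted p = 0.122). The enzymes had a median log2 change of -0.02, 8 positive and 10 negative. Insig1 was at -0.27 ± 0.11 (adjusted p = 0.182) and Scap at -0.19 ± 0.07 (adjusted p = 0.151), with every KO_EAE library below WT for both. Insig2 was at -0.02 ± 0.11, with overlapping groups.

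Genes around these pathways were read from a list of 38 further sterol and lipid genes, 35 of which were tested. From WT to KO, 7 rose and 3 fell, where 9.41% of all genes tested rose and 3.46% fell. Those that rose include genes that macrophages are known to express. Cyp27a1, which makes an oxysterol, rose by 5.004 on the log2 scale in KO, from 0.438 and 0.551 CPM to 14.2 and 18.1 CPM. Pltp, a phospholipid transfer protein, rose by 4.13, Scarb1, a lipoprotein receptor, by 1.96, and Rxra, the partner of the liver X receptors, by 1.22. Lipa, the lysosomal lipase, rose by 0.55, Lpin1, a phosphatidate phosphatase, by 0.50, and Soat1, which esterifies cholesterol, by 0.32. The calls of Cyp27a1, Pltp, Scarb1 and Rxra held without each library in turn. That of Soat1 was lost without any 1 of the WT or KO libraries (adjusted p up to 0.234), that of Lpin1 without WT replicate 2 or either KO library (up to 0.172), and that of Lipa without either WT library (up to 0.0551). These rises stood beside the rise of 18 of the 20 macrophage and dendritic cell markers. Those NK, erythroid and B cell markers that were called above also rose, and the part of such cells was not tested. In the normalized table the log2 change was -0.33 for Rxra, opposite to the count table, and 0.01 for Soat1. It was 0.68 for Scarb1, 3.33 for Cyp27a1, 1.18 for Pltp, 0.25 for Lipa and 0.26 for Lpin1. There limma called none of the 7 (adjusted p from 0.401 to 0.987). Over 10 alternative fits in that table, the log2 change ran from 0.35 to 6.32 for Cyp27a1. It ran from -0.05 to 1.40 for Scarb1 and from -0.90 to 0.25 for Rxra. From WT to KO_EAE, 5 rose and 1 fell, where 7.41% of all genes tested rose and 1.95% fell. Lipa, Scarb1, Rxra, Cyp27a1 and Pltp were those that rose. Without either WT library Lipa was not called there (edgeR adjusted p up to 0.122).

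A second deposited table held normalized counts for WT and KO libraries under the same library names but with other values, so each test was kept within its table. The whole reads recovered from it also differed from the count table, and not by 1 common factor. In WT replicate 1, Idi1 had 104 recovered reads against 912 in the count table, and Acly 6990 against 4621. Why the reads differ was not tested. There Bcl11b stood at 10518 and 11371 in WT and at 6746 and 5211 in KO, a log2 change of -0.88 ± 0.14 (limma, adjusted p = 0.0895). Of the 36 genes, 35 were listed under their symbols and 33 passed the filter on low values. None was called by limma, which called 0.00819% of all 12208 genes; 4 had an unadjusted p under 0.05, and edgeR on the recovered reads called 0. The KO values were both above WT for 6 of the tested genes (23.5% of all genes) and both below for 9 (22.3%).

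In that table Nr1h3 stood at 195 and 204 normalized counts in WT and 403 and 438 in KO, a log2 change of 1.07 ± 0.28 (limma, adjusted p = 0.234). The 19 macrophage and dendritic cell markers listed there summed to 9895 and 15926 in WT and 35359 and 30149 in KO. Srebf2 stood at 5973 and 5668 in WT and 4325 and 4462 in KO, a log2 change of -0.41 ± 0.11 (limma, adjusted p = 0.233). Srebf1 was at -0.40 ± 0.12 (adjusted p = 0.279) and Scap at -0.29 ± 0.13 (adjusted p = 0.397), again with both KO values below WT.

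For some of the tested genes the WT and KO libraries did not overlap in either table. Of these, 8 had the same direction in the 2 tables, and 5, Mvd, Fads1, Nsdhl, Mylip and Fasn, had opposite directions. Over all genes tested, 32.7% were apart and higher and 32.5% apart and lower in the count table. In the normalized table these shares were 23.5% and 22.3%. The share of all genes apart in both tables was not computed. Mvd had 387 and 429 normalized counts in WT and 557 and 507 in KO, a log2 change of 0.38 ± 0.23 (limma, adjusted p = 0.509). Fads1 had 498 and 547 in WT and 371 and 442 in KO, a log2 change of -0.36 ± 0.24 (adjusted p = 0.538). Nsdhl was at 0.50 here and -0.20 in the count table, Mylip at -0.26 and 0.31, and Fasn at 0.16 and -0.16. Hmgcs1, Insig2 and Nr1h3 were higher in KO in both tables without overlap, and Cyp51, Srebf2, Scap, Nr1h2 and Acaca lower. Sqle was at 0.00 ± 0.25, with overlapping groups. Scd1 had 1.27 and 0 in WT and 11.6 and 5.15 in KO, and Fads2 0 and 10.8 in WT and 0 and 4.29 in KO; both were removed by the filter.

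The authors' deposited table of fold changes gave an adjusted p for 33 of the 36 genes, and 1, Srebf2, was under 0.05, where 3.36% of the genes with an adjusted p were. In the authors' deposited table Srebf2 had a log2 change of -0.38 with an adjusted p of 0.0352. In the authors' deposited table Nr1h3 was at 0.62 with an adjusted p of 0.0999, and Srebf1 at -0.36 with an adjusted p of 0.128. The authors' base mean for Srebf2, 5107, is the mean of its 4 normalized values given above. Their results thus rest on the same reads as the normalized values and are not a further, independent test. Their log2 change for Nr1h3 was smaller than the 1.07 of limma. For Scd1, at 1.27 and 0 in WT and 11.6 and 5.15 in KO, theirs was 0.05 (SE 0.06). The 2 scales thus differ, and why was not tested.

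**Figure D5:**
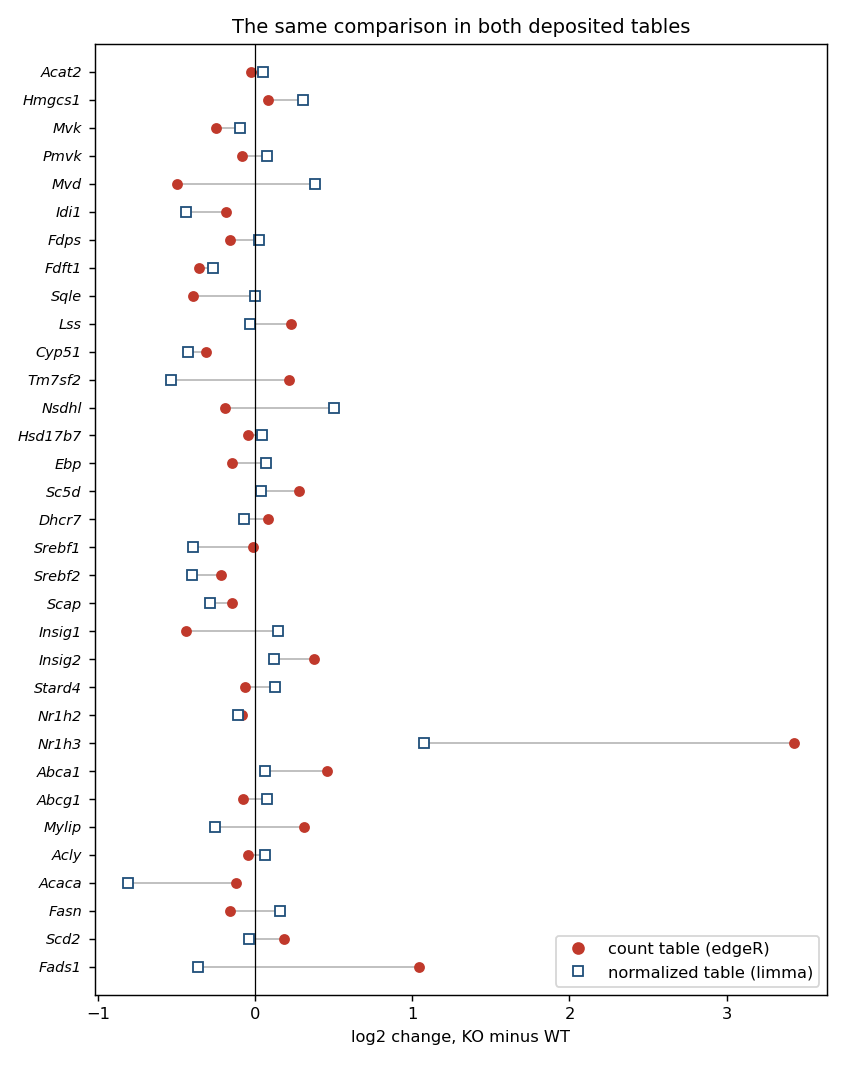
Log2 change from WT to KO (x axis) of the 33 genes tested in both deposited tables (rows): circles, count table (edgeR); squares, normalized table (limma); grey lines join the values of 1 gene. Nr1h3 is positive in both, at 3.43 and 1.07, while Fads1 and Mvd lie on opposite sides of 0.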

How the data were processed

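Counts per gene, normalized counts and a table of fold changes had been deposited by the authors; HISAT2, HTSeq and DESeq2 on mm10 are named in the submitters' processing notes, with no versions or strand setting. Rows that name no gene (25 in the count table, at most 0.217% of reads) were left out. In the deposited normalized signal table, gene counts had been divided by size factors, and 100% of values came out as whole reads (tolerance 0.02 reads). The authors' deposited table gives log2 fold changes with their test score, adjusted p-values and base means (signal).

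Counts were filtered (filterByExpr, minimum count 10, minimum total 15), scaled by TMM and fitted with edgeR 4.0.16 (quasi-likelihood) over all 6 libraries, with 3 residual degrees of freedom; p-values were Benjamini-Hochberg adjusted over 14548 genes. SEs were derived from the fold change and the F statistic. The normalized values were tested with limma 3.58.1 on log2(value + 1), for 12208 genes with values of at least 10 in at least 2 libraries; a log2 change on that scale understates the change of low genes. edgeR on the recovered reads called 12 of 12253 genes. DESeq2 1.42.0 was an alternative. Scripts were tested on simulated data. Exon lengths and positions came from GENCODE M21 (GRCm38, the mm10 assembly); exons of 11 of the 36 genes overlap another gene's. Msmo1 was not found under its symbol in the normalized table.

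Named genes were all of the 36 called in any comparison, the 2 of highest level in each role, and those called in the list of further sterol and lipid genes, of which some are not reported here. The 36 genes and the lists were chosen with earlier results of these data known.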

Additional observations from a re-analysis of the deposited data

How the results depend on the processing

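Of the 36 genes, 4 were called from WT to KO, 0 from KO to KO_EAE, 3 from WT to KO_EAE and 0 in the normalized table. From WT to KO there were 2 calls with scaling by library size only, 2 with no filter on low counts and 9 with only the 2 groups compared in the fit; leaving out 1 library gave 2 to 9. From KO to KO_EAE, leaving out 1 library gave 0 to 1. From WT to KO_EAE there was 1 call with only the 2 groups in the fit, and leaving out 1 library gave 1 to 9. In the normalized table every alternative gave 0. The cause of these differences was not tested. Where a fit left a group with 1 library, that library was assumed to vary like the others.

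The values gave little sign that the replicate numbers pair the samples, though low correlations cannot exclude pairing. Over 10962 genes, the correlation of the difference between replicates was 0.05 for WT and KO, 0.21 for KO and KO_EAE, and -0.25 for WT and KO_EAE. With the replicate number as a block there were 3, 0, 2 and 0 calls in the order above. Pairing WT and KO_EAE crosswise, an alternative chosen after seeing the data, gave 1 call.

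No called gene changed direction in any alternative run within the count table, but the normalized table gave Mvd (0.38) and Fads1 (-0.36) the opposite direction from the count table, and Sqle 0.00. Among the 36, 36, 36 and 33 genes tested, 6, 14, 13 and 16 changed sign in at least 1 alternative, none of them called. Over all genes, calls from WT to KO numbered 1873, and from 846 without KO replicate 1 to 3121 with 2 groups in the fit. Calls from WT to KO_EAE numbered 1362, and from 603 without WT replicate 1 to 3762 without KO_EAE replicate 1. From KO to KO_EAE they numbered 2, with 167 by DESeq2 and 313 without KO_EAE replicate 1. In the normalized table they numbered 1, with 552 without WT replicate 2. Depth limits Fads2 most, with 4 to 35 reads per library.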
